A study of Mus musculus with 4 samples.

Results

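The 10 genes described here encode the apparatus with which a cell senses microbial products and interleukin 1, together with interleukin 18 (IL-18) and the protease that activates it: Il18, Cd14, Lbp, Tlr2, Tlr3, Tlr4, Il1r1, Il1rap, Myd88 and Casp1. They are the rows of the deposited table with those 10 symbols, out of 52192 gene identifiers, and each symbol was found on a row. The set was chosen by the measured TPM of Il18 and Cd14, lower in the knockdown libraries, so the members' differences between the groups are given as a description, with no p-value, and carry no weight as evidence. RNA came from AML12 cells, a hepatocyte line established from mice transgenic for human transforming growth factor alpha. Of the 4 libraries, 2 were from cells given a lentiviral hairpin against Safb, the gene of the nuclear matrix protein SAFB (shSafb), and 2 from cells given a control hairpin (shCtrl). Every culture had 10% serum and 0.1 μM dexamethasone, a glucocorticoid, took 200 μl of virus concentrate and was harvested on day 5. The labels name no hairpin sequence and do not say that replicates were separate infections, so the errors and p-values given cover differences among these 4 libraries alone, which may be technical.

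In textbook accounts, lipopolysaccharide is handed by LPS-binding protein (Lbp) to CD14, which passes it to a complex of TLR4 and MD-2. TLR2 recognises bacterial lipoproteins, also with help from CD14, and TLR3 recognises double-stranded RNA inside endosomes. TLR2, TLR4 and the IL-1 receptor share a cytoplasmic domain that recruits the adaptor MyD88, whereas TLR3 uses TRIF (Ticam1). IL-18 is made as an inactive precursor that caspase-1 cleaves inside inflammasomes, and hepatocytes are a major source of soluble CD14 and LBP.

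The sequences just before the starts of Il18, the gene with the largest difference, and Casp1, whose product activates IL-18, are shown because both genes matter for the same cytokine, while control cells had much Il18 RNA and next to no Casp1 RNA. They are RefSeq windows on GRCm38.p6 (the mm10 assembly) of 250 bases, printed 5′ to 3′ on the gene's strand, at chr9:50554450-50554699 (plus strand) for Il18 and chr9:5298267-5298516 (plus strand) for Casp1, with capitals at matches to 6 short motifs. RefSeq starts Il18 127 bases before the GENCODE start given further on, so that stretch lies between the Il18 window and the GENCODE start, while for Casp1 both annotations give the same start.
Il18: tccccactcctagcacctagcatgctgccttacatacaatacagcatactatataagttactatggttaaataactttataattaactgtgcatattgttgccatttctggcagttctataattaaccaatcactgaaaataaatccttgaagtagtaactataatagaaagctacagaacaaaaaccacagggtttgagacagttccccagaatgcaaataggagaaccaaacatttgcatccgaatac
Casp1: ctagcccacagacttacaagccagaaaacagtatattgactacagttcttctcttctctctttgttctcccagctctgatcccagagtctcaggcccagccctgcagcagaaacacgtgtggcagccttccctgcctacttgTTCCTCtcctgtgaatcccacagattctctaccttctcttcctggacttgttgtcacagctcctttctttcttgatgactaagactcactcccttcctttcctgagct

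The Il18 window was AT-rich, with 35.6% G and C and 1 CpG, against medians of 52.4% and 6 over all 32851 RefSeq windows. A G and C share that low or lower was found in 5.81% of windows. The 6 motifs were searched on both strands: GGGANTTNC (NF-kB), GAAANNGAA (the interferon response element), TGANTCA (AP-1), TTCNNNGAA (STAT), TTGCNNAA (C/EBP) and GAGGAA (PU.1). The Il18 window held none of these letter strings and the Casp1 window held 1, a PU.1 string, which 23.3% of all windows hold. Of the other members with a RefSeq window, Tlr2 had the NF-kB match GGGAATTCC, overlapped by the same string on the other strand, and Tlr3 the NF-kB match GGGAGTTTC, a pattern present in 3.54% of windows. Tlr3 also had a C/EBP match (9.56% of windows), as did 1 of 2 windows of Il1r1. In Myd88 an interferon element (7.13% of windows) and a STAT match (7.02%) overlapped, while Il1rap had no match. AP-1 strings, found in 6.75% of windows, were absent from all 8 windows of the 7 members. In GENCODE, 159 bases of the Tlr2 window, 178 of the Tlr3 window and 23 of the Myd88 window are exonic. The Tlr2 window lies partly inside the GENCODE gene. The Tlr3 and Myd88 windows, and the Il1r1 window without a match, lie wholly inside it. The matches in the Tlr3 and Myd88 windows are therefore not upstream of the GENCODE start. Both Tlr2 matches are, since they begin 172 and 171 bases before the RefSeq start and the GENCODE start lies 159 bases before it. All matches given here are matches of letters, not binding sites.

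As a check of the labels, Safb stood at 15.8 and 15.02 TPM in the shSafb libraries, against 23.8 and 23.3 TPM in the shCtrl libraries. The shSafb mean was 0.653 of the shCtrl mean, with a log2 difference of -0.56 ± 0.07 (SE; limma adjusted p = 0.00411). This is a limited check, as 22.4% of all tested genes were lower. Safb did not pass when a fold of at least 1.5 on the log2 scale was required as well. TPM is a transcript abundance corrected for gene length and scaled to a fixed library total, so levels may be compared between genes but read depth is not kept. Between 12946 and 13117 genes reached 1 TPM per library. Mitochondrial genes took 0.319% and 0.343% of the TPM in shSafb, against 0.845% and 0.703% in shCtrl, and with these and the small RNAs left out the log2 differences of Il18, Cd14 and Lbp were -2.50, -0.83 and 0.76. Genes of the line's origin were present: the 10 hepatocyte markers summed to 2819 and 2808 TPM in shSafb, against 3176 and 3063 TPM in shCtrl. Most of that sum was Ttr, the transthyretin gene, which was not past the threshold defined below, and the other markers differed in both directions. Of the 9 tested, Alb, the albumin gene, was lower (122 and 127 TPM in shSafb, against 378 and 345 TPM in shCtrl; limma adjusted p = 5.31e-04), as was Apoa1, and the 3 genes Serpina1a, Fga and Fgb were higher. Of 12 macrophage markers 6 were listed at 0 in all 4 libraries (Adgre1, Clec4f, Marco, Timd4, Vsig4 and Itgam), and the 12 together summed to 2.89 and 3.15 TPM in shSafb, against 1.70 and 2.32 TPM in shCtrl. The 1 tested macrophage marker, Csf1r, was higher, at 1.92 and 1.72 TPM in shSafb, against 0.239 and 0.450 TPM in shCtrl (limma adjusted p = 0.00852), whereas Cd68 and Lyz2 had lower values in shSafb and were not tested. Endothelial, stellate and lymphocyte lists reached at most 2.26 TPM in any library. The 4 biliary markers summed to 904 and 908 TPM in shSafb, against 567 and 539 TPM in shCtrl. Of these, Krt19 was higher (676 and 679 TPM in shSafb, against 320 TPM in each shCtrl library; limma adjusted p = 5.42e-04), Sox9 was lower (47.3 and 50.6 TPM in shSafb, against 71.7 and 59.2 TPM in shCtrl; limma adjusted p = 0.0271), Krt7 was not past the threshold and Epcam was close to 0. The part of these marker differences in the members' values was not tested. In bulk RNA, fewer cells expressing a gene and less RNA per cell cannot be told apart.

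Il18, the ligand of the group, had 4.43 and 3.37 TPM in the shSafb libraries, against 25.9 and 25.1 TPM in the shCtrl libraries. Both knockdown values lay far under both control values, and the 2 knockdown libraries differed more from each other, relative to their level, than the 2 controls did. The means were 3.90 ± 0.745 TPM in shSafb and 25.5 ± 0.545 TPM in shCtrl (SD, n = 2 each), so the shCtrl mean was 6.54 times the shSafb mean. On the log2(scaled TPM + 1) scale the difference, shSafb minus shCtrl, was -2.42 ± 0.13 (SE). Among the 13111 genes with a mean of at least 1 TPM, this was the 13th lowest difference. Its level stood at the 19.9th percentile of those genes in shSafb and at the 63.0th percentile in shCtrl. Il18 (ENSMUSG00000039217) spans bases 50554827 to 50581840 of chromosome 9 (mm10, plus strand), with 1031 exonic bases in 4 annotated transcripts. Bco2, a carotenoid-cleaving oxygenase gene, and Tex12, a gene of the meiotic synaptonemal complex, overlap its span on the opposite strand but share no exonic base with it. Bco2 had 0.478 and 0.286 TPM in shSafb, against 1.41 and 1.501 TPM in shCtrl, and Tex12 was listed at 0 throughout.

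Cd14, the coreceptor that loads lipopolysaccharide and lipoproteins onto toll-like receptors, had 63.8 and 65.5 TPM in shSafb, against 119.98 and 114.9 TPM in shCtrl. The groups did not overlap, and the replicates of each lay close together. Its mean was 64.7 ± 1.24 TPM in shSafb and 117.4 ± 3.59 TPM in shCtrl (SD, n = 2 each), a shCtrl mean 1.82 times that of shSafb, with a log2 difference of -0.83 ± 0.04 (SE). That is a much smaller difference than that of Il18, the 775th lowest of the tested genes. Unlike Il18, Cd14 remained among the well-expressed genes, at the 85.4th percentile in shSafb and the 92.2nd in shCtrl. The gene (ENSMUSG00000051439) lies on chromosome 18 from 36725067 to 36726798 on the minus strand, with no other annotated gene over it.

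Lbp, whose secreted product delivers lipopolysaccharide to CD14, went the other way, with 586 and 597 TPM in shSafb, against 364 and 346 TPM in shCtrl. It was the most abundant member in every library. The shSafb mean was 1.67 times the shCtrl mean (591 ± 8.26 and 355 ± 13.02 TPM; SD, n = 2 each), a log2 difference of 0.76 ± 0.04 (SE). The 2 genes that act one after the other on lipopolysaccharide therefore moved apart in level: Cd14 stood at 0.109 and 0.110 of the Lbp level in the shSafb libraries, against 0.329 and 0.332 in the shCtrl libraries. Lbp made up 85.1% and 85.3% of the summed TPM of the 10 members in shSafb, against 66.5% and 66.3% in shCtrl. Without Lbp the other 9 members summed to 103 TPM in each shSafb library, against 183 and 176 TPM in shCtrl.

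**Figure D1:**
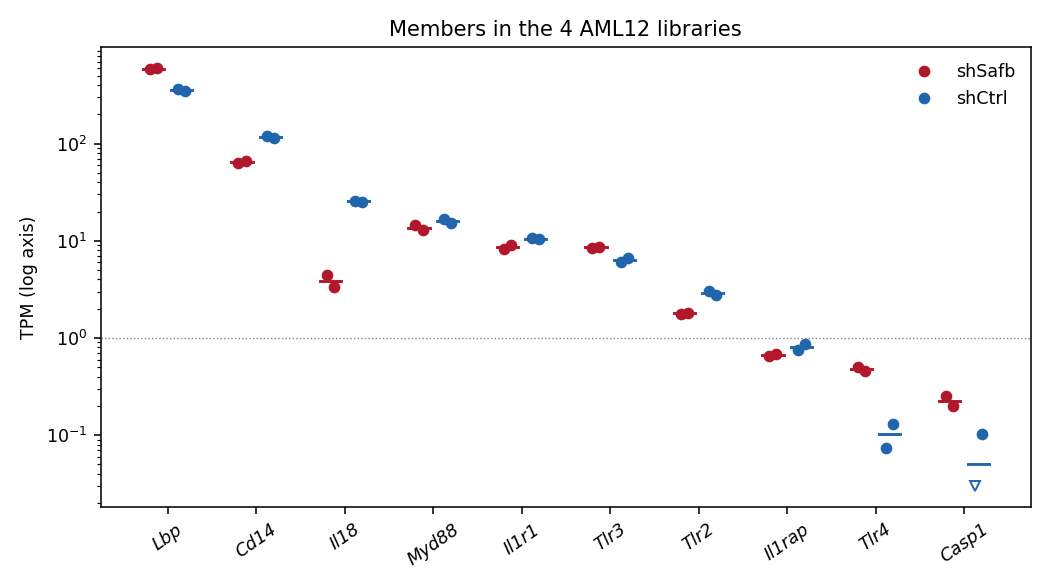
TPM of each member (log axis) in the 2 shSafb libraries (red, left) and 2 shCtrl libraries (blue, right), with a line at each group's mean, a dotted line at 1 TPM and an open triangle at the foot of the axis for the library where Casp1 is listed at 0. Il18 has the widest gap among members above 1 TPM, with 4.43 and 3.37 TPM in shSafb, against 25.9 and 25.1 TPM in shCtrl, while Lbp and Cd14 differ in opposite directions.

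The toll-like receptors were low, and their values differed in both directions. Tlr2, the lipoprotein receptor, had 1.78 and 1.80 TPM in shSafb, against 3.01 and 2.76 TPM in shCtrl, with a log2 difference of -0.46 ± 0.12 (SE). Both shSafb values were below both shCtrl values, and the shCtrl mean was 1.61 times the shSafb mean. Tlr3, the endosomal receptor for double-stranded RNA, had 8.53 and 8.66 TPM in shSafb, against 6.13 and 6.59 TPM in shCtrl, with a log2 difference of 0.41 ± 0.09 (SE). Tlr3 thus stood at 4.79 and 4.82 times the Tlr2 level in the shSafb libraries, against 2.03 and 2.39 times in the shCtrl libraries. Cd14, in contrast, differed from control in the same direction as Tlr2 and stood at 35.8 and 36.5 times its level in shSafb, against 39.8 and 41.7 times in shCtrl. Tlr4, the lipopolysaccharide receptor itself, had only 0.504 and 0.457 TPM in shSafb, against 0.0731 and 0.130 TPM in shCtrl, too low to be tested.

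The receptor and adaptor of the IL-1 branch had smaller differences. Il1r1, the ligand-binding chain of the IL-1 receptor, had 8.33 and 9.13 TPM in shSafb, against 10.6 and 10.4 TPM in shCtrl (log2 difference -0.22 ± 0.09, SE). Myd88, the shared adaptor of this receptor and most toll-like receptors, had 14.5 and 12.8 TPM in shSafb, against 16.9 and 15.2 TPM in shCtrl (log2 difference -0.19 ± 0.09, SE). In both genes the groups did not overlap, but for Myd88 the gap between the groups' nearest values was smaller than that between replicates. Myd88 shares 290 of its 2576 exonic bases with Acaa1a, a peroxisomal thiolase gene on the opposite strand that had 85.0 and 115 TPM in shSafb, against 87.5 and 127 TPM in shCtrl. Since it is not stated whether reads were counted by strand, the Myd88 value is uncertain to that extent. Il1rap, the signalling chain that joins Il1r1, had 0.657 and 0.686 TPM in shSafb, against 0.747 and 0.876 TPM in shCtrl.

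Casp1, the protease that activates IL-18, was close to the bottom of the scale, at 0.252 and 0.201 TPM in shSafb, against 0 and 0.102 TPM in shCtrl. With 1 control library listed at 0, no ratio of TPM means is given. The same control libraries held 25.9 and 25.1 TPM of Il18.

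Of the 10 members, 7 passed the filter of a mean of 1 TPM and 3 (Il1rap, Tlr4 and Casp1) did not. In limma's fit over all 13111 genes, where a Benjamini-Hochberg adjusted p under 0.05 counted as past the threshold, 3 of the 7 lay past it as lower (Il18, Cd14 and Tlr2) and 2 as higher (Lbp and Tlr3). Of all tested genes, 44.3% lay past the same threshold. The comparison that chose the members is the one being counted, so nothing is read from these counts. In all 7 tested members the values of the 2 groups did not overlap, which was also so in 74.7% of the tested genes. The groups did not overlap in the 3 untested members either, but these lay under 1 TPM and outside that share. The median log2 difference of the 7 was -0.22, against 0.0016 over all tested genes.

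**Figure D2:**
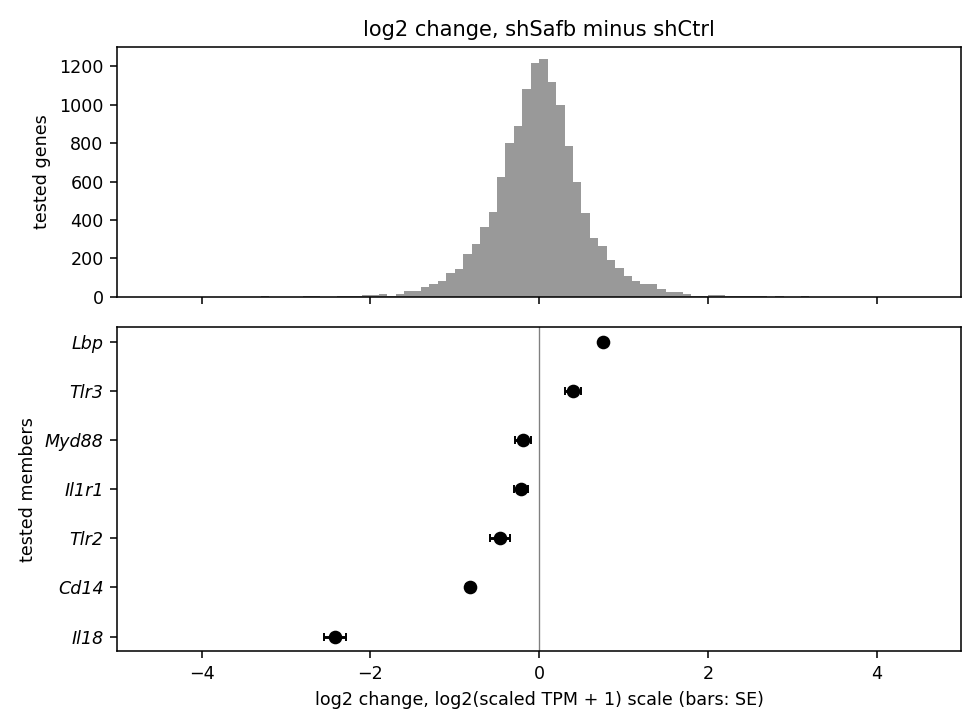
Log2 difference, shSafb minus shCtrl, of the 7 tested members (lower panel, bars are the SE from limma) under the distribution of the same difference over 13111 tested genes (upper panel, bins of 0.1). Il18 at -2.42 lies in the far lower tail, while Cd14 (-0.83) and Lbp (0.76) lie on the 2 shoulders and Myd88 and Il1r1 lie within the bulk.

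By level, the order in shSafb libraries was Lbp, Cd14, Myd88, Il1r1, Tlr3, Il18, Tlr2, Il1rap, Tlr4 and Casp1. In shCtrl libraries Il18 came after Cd14, ahead of Myd88, Il1r1 and Tlr3. All neighbours in these orders were separated by more than their replicate values, except Il1r1 and Tlr3 in shSafb and Tlr4 and Casp1 in shCtrl. Cd14 was 14.4 and 19.4 times as abundant as Il18 in the shSafb libraries, against 4.63 and 4.57 times in the shCtrl libraries. Lbp was 132 and 177 times as abundant as Il18 in shSafb, against 14.1 and 13.8 times in shCtrl.

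The genes whose centred values over the 4 libraries lay nearest to those of Il18, among 10395 named protein-coding genes with a mean of at least 2 TPM, were Mrpl34 (distance 0.10 on the log2 scale), Serpinb9b (0.15), S100b (0.25), Upk3b (0.26) and Rgn (0.26). Mrpl34, a mitochondrial ribosomal protein gene, shared with Il18 a higher first shSafb library, at 21.3 and 15.5 TPM, against 100.4 and 99.8 TPM in shCtrl. Nearest to Cd14 were Abcb10 (0.013), Lsm3 (0.023), As3mt (0.026), Pkd2 (0.030) and Carhsp1 (0.032). With 2 groups of 2 libraries, such nearness mostly records a difference of the same size.

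Around Il18, Bco2, which overlaps it and was too low to be tested, had lower values in shSafb as given above. Of the 3 nearest tested protein-coding genes on each side, 4 were higher in shSafb in limma's fit and the rest were not past the threshold. Over all tested genes, 21.9% were higher. Sdhd, a succinate dehydrogenase subunit gene whose start lies 49.0 kb downstream, averaged 285 ± 3.38 TPM in shSafb and 214 ± 2.09 TPM in shCtrl (SD, n = 2 each; log2 change 0.43 ± 0.04 SE, limma adjusted p = 0.00234). Ncam1, the neural cell adhesion molecule gene 756 kb upstream, averaged 63.5 ± 0.104 TPM in shSafb and 43.6 ± 0.212 TPM in shCtrl (log2 change 0.56 ± 0.05, limma adjusted p = 0.00213). Pih1d2 (62.5 kb downstream) also rose, by 0.72 ± 0.17 on the log2 scale (limma adjusted p = 0.0279; 0.0174 to 0.108 over alternatives), as did Timm8b, a gene of mitochondrial protein import (49.1 kb downstream), by 0.29 ± 0.09 (0.0492; 0.0279 to 0.172). Timm8b no longer passed without shCtrl replicate 1 (adjusted p = 0.125), shSafb replicate 1 (0.172) or shSafb replicate 2 (0.0809). Its call was also lost with the replicate block (0.0728), a pseudocount of 0.1 (0.0503), a filter of 0.1 TPM (0.0791), no filter (0.131) or no intensity trend (0.0899). With a fold of at least 1.5 required as well, Sdhd, Ncam1 and Timm8b did not pass, while Pih1d2 did. Pih1d2 no longer passed without shCtrl replicate 2 (0.0794), shSafb replicate 1 (0.108) or shSafb replicate 2 (0.0580), or with no filter on low values (0.0860). Pts, the next gene upstream, had 35.8 and 38.5 TPM in shSafb, against 38.1 and 23.0 TPM in shCtrl, and passed only without shCtrl replicate 1 (adjusted p = 0.0171). Rpl10-ps3 did not pass (log2 difference -0.07 ± 0.12).

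Around Cd14, 1 of the 6 genes was lower in shSafb and 5 were not past the threshold. Ndufa2, a respiratory complex I subunit gene 17.8 kb upstream, averaged 149 ± 3.96 TPM in shSafb and 157 ± 8.37 TPM in shCtrl (SD, n = 2 each; log2 difference -0.05 ± 0.05). Tmco6 (8.24 kb upstream), Ik (17.9 kb upstream), Sra1 and Slc35a4 had log2 differences of -0.15, -0.14, -0.13 and -0.47 and were not past the threshold. For Slc35a4 this changed without shSafb replicate 2 (-0.75, limma adjusted p = 0.0224). E230025N22Rik, 30.9 kb downstream, was lower in shSafb at 0.906 ± 0.170 TPM, against 2.20 ± 0.240 TPM in shCtrl (SD, n = 2 each; log2 change -0.73 ± 0.16, limma adjusted p = 0.0208). It no longer passed without shCtrl replicate 1 (0.0585), shCtrl replicate 2 (0.0964) or shSafb replicate 1 (0.0801), with a range of 0.0136 to 0.0964 over alternatives. Of the 16 genes flanking the other 8 members, 5 rose in shSafb, 5 fell and 6 stayed short of the threshold. Beside these counts, 21.9% of all tested genes were higher and 22.4% lower.

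**Figure D3:**
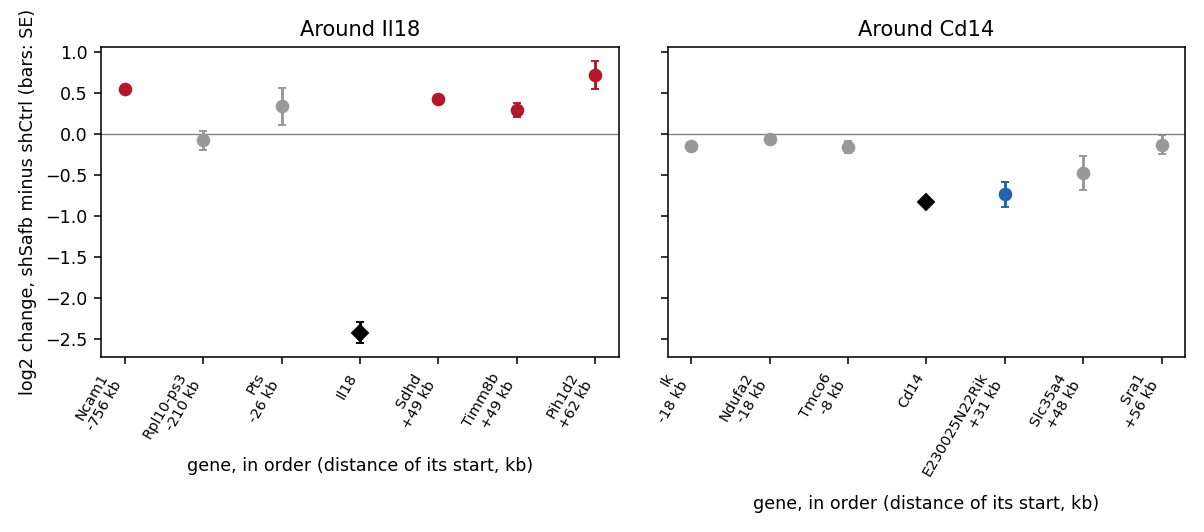
Log2 difference, shSafb minus shCtrl (bars are the SE), of Il18 and Cd14 (black diamonds) and of the 3 nearest tested protein-coding genes on each side, in order with the distance of their starts in kb; red is past the threshold and higher, blue past it and lower, grey not past it. Il18 at -2.42 stands between neighbours from -0.07 to 0.72, and Cd14 at -0.83 beside neighbours from -0.73 to -0.05.

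The rest of the sensing pathway was drawn up as 5 lists that hold 96 genes beside the members, of which 48 were tested, 27 were detected under the filter and 21 were listed at 0. Of the 48, 11 rose in shSafb, 16 fell and 21 stayed short of the threshold, with a median log2 difference of -0.11. Over all 13111 tested genes 21.9% were higher and 22.4% lower, with a median of 0.0016. The values below come from the limma fit over all tested genes.

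Among partners of the toll-like receptors, 1 of 5 tested genes rose and 1 fell. Unc93b1, which escorts endosomal receptors such as TLR3 from the endoplasmic reticulum, had 23.2 and 22.7 TPM in shSafb, against 12.5 and 9.35 TPM in shCtrl (log2 change 1.04 ± 0.13 SE, limma adjusted p = 0.00447). Cnpy3, a chaperone for receptor folding, had 31.8 TPM in both shSafb libraries, against 49.7 and 50.4 TPM in shCtrl (log2 change -0.61 ± 0.06, limma adjusted p = 0.00227). Ly96, encoding the MD-2 partner of TLR4, had 4.05 and 5.66 TPM in shSafb, against 6.20 and 5.19 TPM in shCtrl, and Tlr5, the flagellin receptor, 1.55 and 1.19 TPM in shSafb, against 1.96 and 1.44 TPM in shCtrl. These 2 genes, and Hsp90b1, were not past the threshold and are named after their values were seen. Tlr8, Tlr9, Tlr11, Tlr12, Cd180 and Ly86 were listed at 0 in all 4 libraries.

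Adaptors and kinases that act after these receptors went both ways, with 6 of 24 higher, 8 lower and the other 10 short of the threshold. The number higher was 3 without shSafb replicate 1 or shSafb replicate 2, and the number lower was 4 without shCtrl replicate 1 and 5 without shSafb replicate 1. Irak1, a kinase recruited by MyD88, had 16.5 and 15.6 TPM in shSafb, against 30.5 and 30.1 TPM in shCtrl (log2 change -0.85 ± 0.07 SE, limma adjusted p = 0.00149). Ube2n, the ubiquitin-conjugating enzyme that works with TRAF6, fell to 15.997 and 17.6 TPM in shSafb, against 28.9 and 31.4 TPM in shCtrl. Tbk1, the kinase of the TRIF branch, rose to 32.2 and 34.0 TPM in shSafb, against 19.6 and 20.1 TPM in shCtrl. Ticam1, the TRIF gene itself, was lower and is named after its values were seen. It had 6.96 and 7.46 TPM in shSafb, against 11.8 and 10.1 TPM in shCtrl (limma adjusted p = 0.0144). Tollip, an inhibitor of IRAK1, rose to 73.8 and 72.3 TPM in shSafb, against 56.5 and 51.3 TPM in shCtrl. The limma adjusted p was 0.00395 for Ube2n, 0.00238 for Tbk1 and 0.00399 for Tollip.

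In the IL-1 family, 2 of 4 tested genes beside the members rose and the other two were not past the threshold. Il33, a nuclear cytokine of this family, had 25.2 and 24.7 TPM in shSafb, against 16.9 and 17.7 TPM in shCtrl (log2 change 0.53 ± 0.07 SE, limma adjusted p = 0.00615). In control cells Il18 stood above Il33 in each library, and in knockdown cells Il33 stood above Il18. Il18rap, an IL-18 receptor chain named after its values were seen, had 2.33 and 2.60 TPM in shSafb, against 0.322 and 0.480 TPM in shCtrl (log2 change 1.32 ± 0.15, limma adjusted p = 0.00397). The ligand-binding chain Il18r1 was listed at 0 in all 4 libraries, as were Il1a and Il1b. Il18bp, the secreted IL-18 inhibitor, had 1.79 and 2.13 TPM in shSafb, against 1.88 and 1.55 TPM in shCtrl, and was not past the threshold, and neither was Sigirr.

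Of 8 tested inflammasome and pyroptosis genes 1 rose and 2 fell, and neither fall held against every library left out. Gsdmd, the pore-forming gasdermin cut by inflammatory caspases, had 104 and 103 TPM in shSafb, against 78.7 and 72.5 TPM in shCtrl (log2 change 0.47 ± 0.05 SE, limma adjusted p = 0.00282). Nek7, a kinase that binds NLRP3, had a log2 change of -0.39 ± 0.08 (adjusted p = 0.0213 in limma; 0.0150 to 0.0913 over alternatives), a call lost without shCtrl replicate 2 (0.0770) or shSafb replicate 2 (0.0913). Casp12 had one of -0.51 ± 0.14 (limma adjusted p = 0.0443; 0.0334 to 0.149), a call lost whichever library was left out (0.0513 to 0.149), with the replicate block (0.0584), with a filter of 0.1 TPM (0.0577) and with no filter (0.110). Pycard, the adaptor that links sensors to caspase-1, was listed at 0 in every library, as were Nlrp3, Nlrp1b and Mefv. Casp4, the neighbour of Casp1 on chromosome 9, had 1.55 and 1.04 TPM in shSafb, against 0.613 and 0.865 TPM in shCtrl, and was not past the threshold.

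Of 18 other pattern recognition genes 7 were tested, with 5 lower, 1 higher and a median of -0.74. Over all tested genes 22.4% were lower and 21.9% higher. The lists were chosen with earlier results of these data known, so no trend is read from this count. Crp, the pentraxin C-reactive protein, had 55.5 and 60.7 TPM in shSafb, against 185 and 177 TPM in shCtrl (log2 change -1.60 ± 0.06 SE, limma adjusted p = 5.42e-04). Apcs, encoding the pentraxin serum amyloid P, fell to 79.9 and 77.0 TPM in shSafb, against 134 and 135 TPM in shCtrl (limma adjusted p = 0.00123). Nod1, a cytosolic sensor of bacterial peptidoglycan, and its kinase Ripk2 fell by 0.65 ± 0.09 and 0.80 ± 0.11 on the log2 scale (limma adjusted p = 0.00706 and 0.00600). Named after their values were seen, Mbl1, a mannose-binding lectin gene, was the fifth lower gene (2.71 and 3.08 TPM in shSafb, against 5.59 and 5.57 TPM in shCtrl), and Sftpd, a collectin gene, the 1 higher (8.44 and 7.001 TPM in shSafb, against 4.17 and 4.26 TPM in shCtrl).

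**Figure D4:**
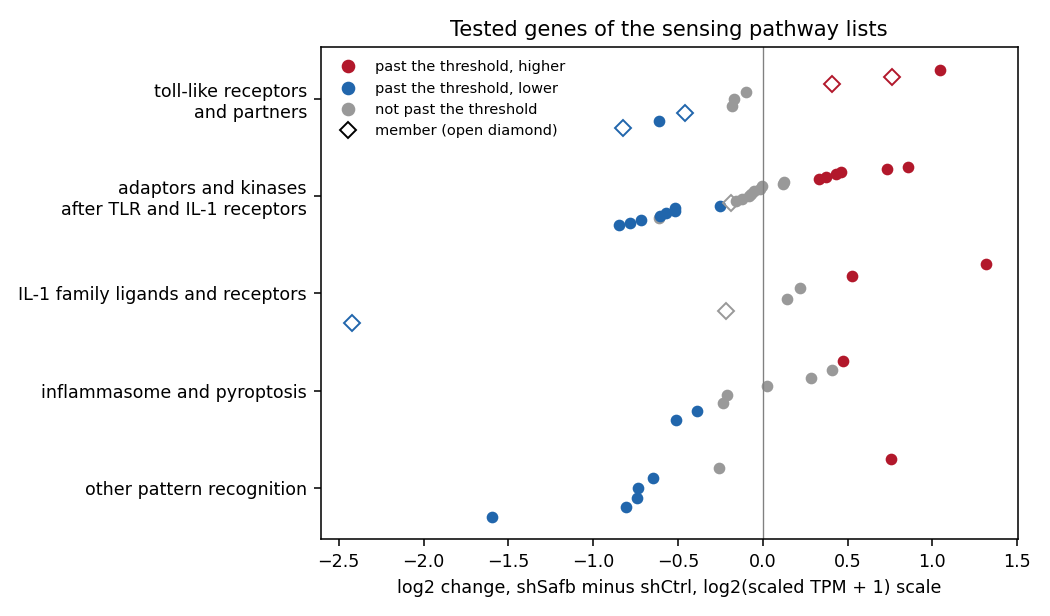
Log2 difference, shSafb minus shCtrl, of every tested gene in the 5 sensing lists, 1 point per gene, ordered within its list; red and blue are past limma's threshold as higher and lower, grey is not past it, and open diamonds are members. Il18 at -2.42 lies left of every other point, Crp at -1.60 next, and the adaptors spread on both sides of 0.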

How the data were processed

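Ribosomal RNA was removed from total RNA and strand-specific libraries were sequenced, per the labels' protocols. The submitters' processing notes name HISAT2, HTSeq, StringTie, DESeq2 and mm10, with no version, and annotation release and strand setting are not given in the sources used here. The deposited values are TPM, 1 for each gene in each library. Read counts cannot be had from TPM, so the depth is unknown. Identifiers on several rows (6) were summed, and names and coordinates came from GENCODE M21 (52045 of 52192 identifiers). Genes with a mean of at least 1 TPM were tested. Libraries were scaled by median ratio, and log2(scaled TPM + 1) was fitted on group with limma 3.58.1 in R 4.3.3 (empirical Bayes with trend; 2 residual degrees of freedom and 2.61 prior ones). Tests were two-sided, and a gene passed at a Benjamini-Hochberg adjusted p under 0.05. Tested on simulated data for shSafb against shCtrl (13111 genes), the fit recovered 28.2% of 1.5-fold, 62.2% of 2-fold, 81.2% of 4-fold and 91.8% of 8-fold changes. Far fewer genes were changed there than the 44.3% past the threshold in the data, and spreads were shuffled among genes. Changes were planted on the log2(scaled TPM + 1) scale, and only in genes well above the filter of 1 TPM. Genes near the filter are thus not covered. These shares therefore need not hold for this fit, and real changes can stay short of the threshold. TPM folds are ratios of means; log2 values understate changes of low genes. Members and lists were chosen with earlier results of these data known, and motifs after seeing the members' values. Named genes were all members, Safb, up to 4 genes with the smallest p per list (mean of at least 2 TPM), the neighbours of Il18 and Cd14, and 5 nearest genes each. List names absent from the table were matched through RefSeq synonyms. RefSeq windows were used for 7 of 10 members, and windows on chromosome 18, where Cd14 lies, were left out. Alternatives covered pseudocount, filter, scaling, variance model, replicate block, each library left out and a fold threshold. Python 3.11.15 with pandas 2.3.3 and numpy 2.4.6 was used.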

Additional observations from a re-analysis of the deposited data

How the results depend on the processing

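Over 11 alternatives every member kept its direction. Il18 ran from -2.67 (pseudocount of 0.1) to -2.26 (without shSafb replicate 2) on the log2 scale, Cd14 from -0.85 to -0.80 and Lbp from 0.74 to 0.78. With a pseudocount of 0.1 the low genes Tlr4 and Casp1 came to 1.55 and 1.20, against 0.43 and 0.23 with 1. Over all genes, 2867 were higher and 2938 lower, and with 1 library left out these ran from 1768 (without shSafb replicate 1; 1814 without shSafb replicate 2) to 2124 and from 1961 to 2186. When a 1.5-fold difference was required as well, 1303 were higher and 1408 lower, and of the 96 pathway genes 5 were higher and 10 lower, in place of 11 and 16. By list, that left 2 adaptors higher and 4 lower, 1 IL-1 family gene higher and 0 inflammasome genes in either direction, in place of 6, 8, 2 and 1 higher and 2 lower. With no filter, 3 adaptors, 4 IL-1 family genes and 2 inflammasome genes were higher and 1 inflammasome gene lower. With 1 library left out, 8 to 10 pathway genes were higher and 11 to 12 lower. Both groups carry replicate numbers 1 and 2, which no label ties to a shared batch, and the deviations of same-numbered libraries had a correlation of -0.0641 across genes. With the replicate number as a block, 2540 genes were higher and 2686 lower, and among pathway genes 10 and 14. A lone library was assumed to vary like the other group.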
